A study of Mus musculus with 50 samples.

Results

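The genes for the proteins of the cytosolic ribosome were described in 50 RNA-seq libraries of mouse regulatory T (Treg) cells and their thymic precursors. Members were the symbols made of Rpl or Rps and a number, together with Rplp0, Rplp1, Rplp2 and Rpsa, whose mean over all libraries reached 10 CPM (counts scaled to the library total). Pseudogene symbols and the kinases named after Rps6 were left out. Of 55011 gene rows, 90 symbols matched, and 81 reached the minimum, 49 of the large and 32 of the small subunit. The 9 symbols below it ran from Rps12l1 at 0 CPM to Rps4l at 5.76 CPM and were mostly paralogs of members, among them Rpl3l, Rpl10l, Rpl6l and Rpl39l, and the member nearest the minimum was Rpl24 at 14.8 CPM. All 81 members had counts in every library, and the GENCODE M21 annotation lists each of them as protein coding, on 19 chromosomes.

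The series asks how Treg cells made around birth contribute to the visceral adipose tissue (VAT) population. Thymic precursors came from male B6.Cg-Foxp3tm1Kuch/J mice, labelled wild type, aged 5, 12 or 49 days. Both precursor types were CD4+ CD8-: P1 cells were CD25+ Foxp3-, and P2 cells were CD25- Foxp3+. Peripheral CD4+ Treg cells were sorted by GFP from spleen, lung, liver, ear skin and VAT of male mice of week 20 that carry Foxp3tm3(HBEGF/GFP)Ayr/J on B6.129(Cg), also labelled wild type. In this line the Foxp3 locus drives GFP and the diphtheria toxin receptor, so that diphtheria toxin (DT) kills Treg cells. The sample titles call the peripheral arms PBS and DT, whereas the design text has carriers and non-carriers of the receptor, both injected with toxin on 3 consecutive days at week 12 and rested for 8 to 9 weeks. The text below keeps to the titles and writes PBS-labelled and DT-labelled. Sorted cells numbered 500 to 1000 per library, with 3 libraries in 14 groups and 4 in each of the VAT groups. Whether the replicates are different animals is not stated, and their spread, which the p-values rest on, may be technical.

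Library totals ran from 2521078 to 6981037 counts. Mean Foxp3 was 8.9 to 14.5 CPM in the P1 groups, 287.6 to 789.4 CPM in the P2 groups and 257.5 to 424.5 CPM in the peripheral groups, the order that the gates describe.

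A ribosome joins a small subunit, which reads the messenger RNA, to a large subunit, which forms the peptide bonds. Each subunit holds ribosomal RNA and a fixed set of proteins, so cells make most of these proteins in matching amounts. Their messages typically begin with a cytosine followed by a run of pyrimidines, the 5′ terminal oligopyrimidine (TOP) tract, through which mTORC1 and the binding protein Larp1 control their translation. T cells raise ribosome production when they are activated. Many ribosomal protein genes have numerous processed pseudogenes, so reads can be split between near-identical copies, and how such reads were counted is not given in the sources used here.

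RefSeq promoters on GRCm38.p6 were matched for 61 of the 81 members. The windows shown run from 30 bases before to 20 bases after the annotated start, and capitals mark a C within 5 bases of the start and the run of at least 5 pyrimidines behind it. Rps6, Rpl35, Rplp2 and Rps12 are shown because they moved in opposite directions in the libraries described next, Rps27 and Rps15a because they differed between precursor types and tissues, and Rpl27a because its levels followed the median member most closely.
Rps6, chr4:86857348-86857397, minus strand: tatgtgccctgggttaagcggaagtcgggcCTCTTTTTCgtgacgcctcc
Rpl35, chr2:39005112-39005161, minus strand: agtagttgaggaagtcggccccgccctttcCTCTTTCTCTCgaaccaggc
Rplp2, chr7:141447621-141447670, plus strand: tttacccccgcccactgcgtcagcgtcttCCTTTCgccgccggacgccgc
Rps12, chr10:23787190-23787239, minus strand: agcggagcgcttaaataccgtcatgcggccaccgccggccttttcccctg
Rps27, chr3:90213629-90213678, minus strand: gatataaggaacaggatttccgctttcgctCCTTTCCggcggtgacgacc
Rps15a, chr7:118116128-118116177, minus strand: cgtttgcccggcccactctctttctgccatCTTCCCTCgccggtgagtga
Rpl27a, chr7:109519165-109519214, plus strand: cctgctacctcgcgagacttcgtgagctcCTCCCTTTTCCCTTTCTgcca
The Rps12 window holds no match at its annotated start. Such a run was found in 26 of the 61 matched members (42.6%) and in 11.9% of all genes with a promoter, and its length was 6 to 17 bases with a median of 8. With the C required at the start base itself, it was found in 11 of the 61 members and 2.0% of genes. CCGGAAG, a form of the Ets factor motif, stood on either strand of the 300-base promoters of 41.0% of members and 9.9% of genes, whereas TATAAA was in 11.5% of members and 15.7% of genes. The Rpl35, Rps6 and Rplp2 windows each hold a C followed by such a pyrimidine run. Whether the run bears on the direction in which these members moved was not tested.

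Per kilobase of the merged exons of a gene, the mean level over all libraries was highest for Rplp1 (2385 CPM per kb) and Rplp0 (1579 CPM per kb), which belong to the stalk that recruits translation factors. Per kilobase of the longest coding transcript Rplp1 ranked 2 (2385 CPM per kb) and Rplp0 4 (1929 CPM per kb). The lowest on the coding transcript scale were Rpl24 (21.9 CPM per kb) and the paralogs Rpl36al (36.4 CPM per kb) and Rpl7l1 (43.2 CPM per kb). Low values such as that of Rpl24, of the large subunit, can depend on how reads shared with pseudogenes were counted, which was not tested.

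All members together took 3.66% to 6.95% of the counts of a library, the large subunit 1.97% to 3.71% and the small subunit 1.65% to 3.24%. In the thymus the share was 5.64% ± 0.306 (SD, n = 3) in P1 and 6.18% ± 0.122 in P2 cells at day 5, 4.36% ± 0.14 and 5.42% ± 0.129 at day 12, and 5.65% ± 0.152 and 4.57% ± 0.901 at day 49. The day 49 P2 libraries had 5.497%, 4.51% and 3.70%, a wider spread than in any other thymic group. Among PBS-labelled Treg cells the share was 5.996% ± 0.676 in spleen, 5.96% ± 0.79 in lung, 4.73% ± 0.444 in liver, 4.48% ± 0.51 in ear skin and 4.50% ± 0.616 in VAT (n = 4). In the DT-labelled arm it was 6.18% ± 0.689 in spleen, 5.22% ± 0.664 in lung, 4.59% ± 0.174 in liver, 3.78% ± 0.117 in ear skin and 4.84% ± 0.647 in VAT (n = 4). Spleen was above ear skin in both arms, with no overlap between libraries, while spleen and lung overlapped. In bulk libraries of this kind, fewer cells of a type and less RNA per cell cannot be told apart.

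The share of counts in low genes also differed between groups. Genes with a mean under 1 CPM took 0.248% to 0.374% of the counts in every thymic library except the day 12 P1 libraries (0.904% to 1.86%) and day 49 P2 libraries 2 and 3 (1.68% and 2.26%). Ear skin libraries had 1.15% to 2.28%, and the spleen libraries 0.449% to 0.900%. Liver and VAT had 0.371% to 1.07% and 0.363% to 0.950%. Their member shares were near those of ear skin in the PBS-labelled arm and above them, without overlap, in the DT-labelled arm. PBS-labelled lung library 2 had 1.65% with a member share of 5.06%. The part of low genes in the differences below was not tested. A fit with their share as a covariate cannot decide it where that share does not overlap between the compared groups. This holds for day 12 against day 5 P1 cells, day 49 against day 5 P2 cells and ear skin against spleen. There the share runs along with the group, and calls can be lost for that alone. The counts of that fit are given beside some of the results and, for VAT, lung and the other comparisons where they moved, in the last section. The share of all genes called in it was not recorded.

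**Figure D1:**
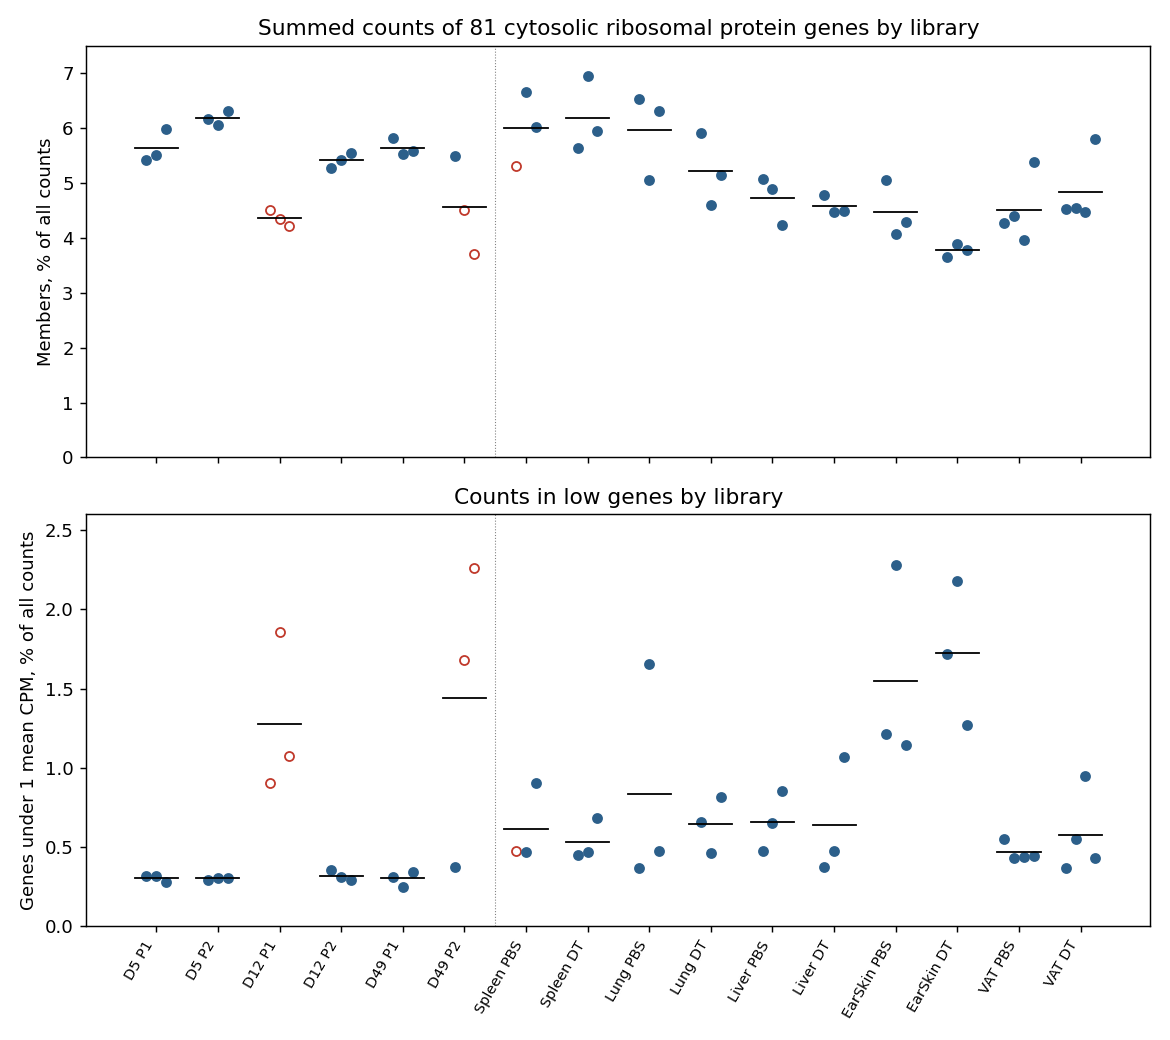
Percent of the counts of each library in the 81 members (upper panel) and in genes with a mean under 1 CPM (lower panel), by group, with 1 point per library, a black line for the group mean and open red circles for the 6 libraries that stand apart. The member share runs from 3.66% in an ear skin library to 6.95% in a spleen library, and the day 12 P1 libraries, day 49 P2 libraries 2 and 3, the ear skin libraries and 1 lung library are high in the lower panel.

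The members did not always move together, and 6 libraries stood apart from the other 44. The log2 ratio of Rps12 to Rps6 counts was -2.64, -2.70 and -2.98 in the 3 day 12 P1 libraries, -2.71 and -4.08 in day 49 P2 libraries 2 and 3 and -3.57 in the first PBS-labelled spleen library. In the other 44 libraries it lay between -0.969 and 0.365. The ratio and its limit of -2 were chosen after the values were seen, so the split is a description without a test. Leaving these 6 libraries out can lower the spread estimated for the members, so calls in such fits rest partly on that choice.

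**Figure D2:**
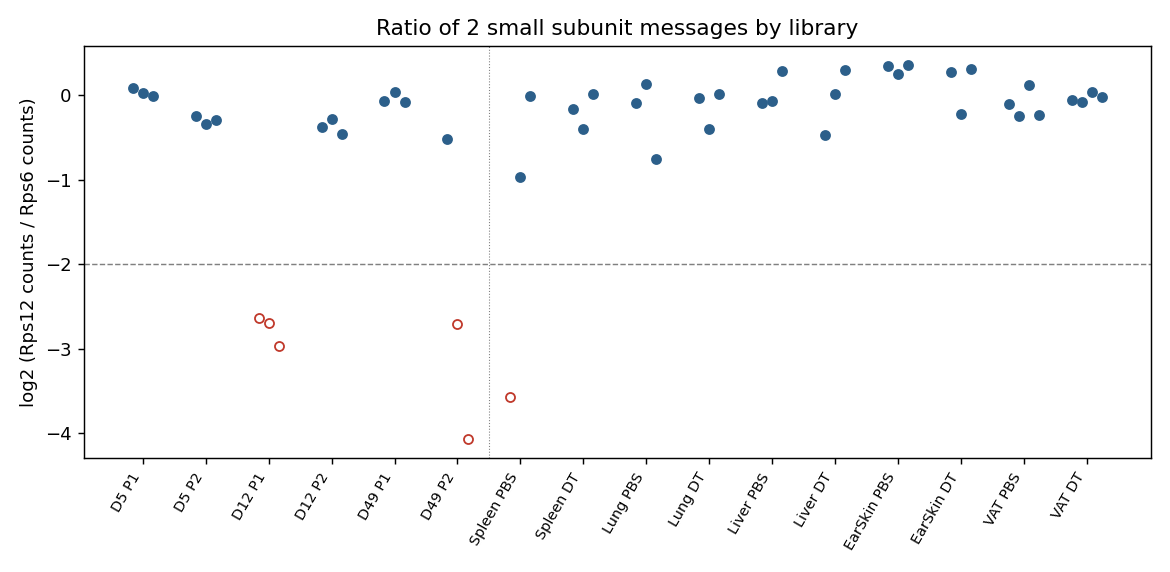
log2 ratio of Rps12 to Rps6 counts in each library, by group, with a dashed line at -2. The 6 libraries below the line run from -4.08 to -2.64, and the other 44 lie between -0.969 and 0.365.

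Rps12, a small subunit protein, had 123.8, 110.6 and 96.2 CPM (after scaling by the trimmed mean of M values, TMM, within thymus or periphery) in day 12 P1 cells, against 549.8, 525.2 and 584.3 CPM at day 5. The day 49 P2 libraries had 369.7, 109.2 and 48.5 CPM, and the PBS-labelled spleen libraries 98.2, 344.5 and 525.8 CPM. Within each of the last 2 groups, the libraries that stand apart were far below the rest. Rps12 and Rps6 define these libraries, so their values there follow in part from the choice.
Rplp2, a stalk protein, followed the same order, with 521.2, 172.6 and 78.3 CPM in day 49 P2 cells and 216.7, 601.4 and 608.0 CPM in PBS-labelled spleen. Rps6, the small subunit protein phosphorylated by the S6 kinases, ran the opposite way, with 527.5, 714.5 and 817.4 CPM and 1165, 674.4 and 529.0 CPM. Rpl35, which lies at the exit of the peptide tunnel, had 129.9, 172.9 and 342.4 CPM and 535.4, 159.8 and 114.6 CPM.
Most members behaved like Rps12. In plain CPM, 50 of the 81 members (61.7%) were lower in the libraries that stand apart in all of these settings: in both day 49 P2 libraries than in the first, in the first spleen library than in the others, and in all day 12 P1 libraries than in every other P1 library. Of all 9039 genes that reached a mean of 10 CPM, 7.1% showed that order. The reverse order in all settings was found for 4 members, Rpl3, Rpl6, Rpl35 and Rps6, or 4.9%, and for 5.1% of the 9039 genes. Rps12 is among the 50 and Rps6 among the 4, and both served to choose the libraries.
Of the 21 translation factors and other genes with TOP messages, 15 were lower and 1 higher in day 12 than in day 5 P1 cells. Of all tested genes 8.16% were lower and 10.1% higher. Eef1a1 had a mean of 3909 CPM in day 12 P1 cells and 7844 CPM in day 5 P1 cells, and Tpt1 250.2 and 772.3 CPM. In P2 cells at day 49 against day 5, 10 of the 21 were lower and 1 higher, beside 11.1% and 14.7% of all genes. Their median was -0.42 with all libraries and -0.27 without those that stand apart, which leaves 1 day 49 library.

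Markers of other cells differed as well. The 8 macrophage and monocyte markers summed to 107.9 and 144.9 CPM in day 49 P2 libraries 2 and 3 and 24.8 CPM in the first, with none of the 8 at 0 in the group. Day 12 P1 libraries were higher than day 5 in several lists: 6 of 6 double positive and CD8 thymocyte markers (76.6 to 82.0 against 56.4 to 62.8 CPM), 5 of 5 fibroblast markers (4.70 to 11.2 against 0.32 to 1.97 CPM) and 7 of 8 macrophage markers (10.95 to 15.98 against 6.70 to 8.69 CPM, with C1qa at 0). There 6 of 6 B cell markers had a higher mean than at day 5, with sums of 14.6 to 19.0 against 4.96 to 6.65 CPM. The 5 hepatocyte markers, 3 of them higher, summed to 23.2 to 24.99 against 5.44 to 7.29 CPM, with Apoa1 at 0. Most of the hepatocyte sum was Ttr, with a mean of 21.7 CPM in day 12 and 5.94 CPM in day 5 P1 cells. Ttr also had 13.8 CPM in day 12 P2 and 14.1 CPM in day 49 P1 cells, where no library stands apart. In the first spleen library the macrophage sum was 14.2 CPM, against 7.56 and 9.54 CPM in the others. Their part in the ratio was not tested. All 3 day 12 P1 libraries stand apart, so day 12 and this property cannot be told apart in P1 cells. Each comparison below is given with and without these 6 libraries where it can be.

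**Figure D3:**
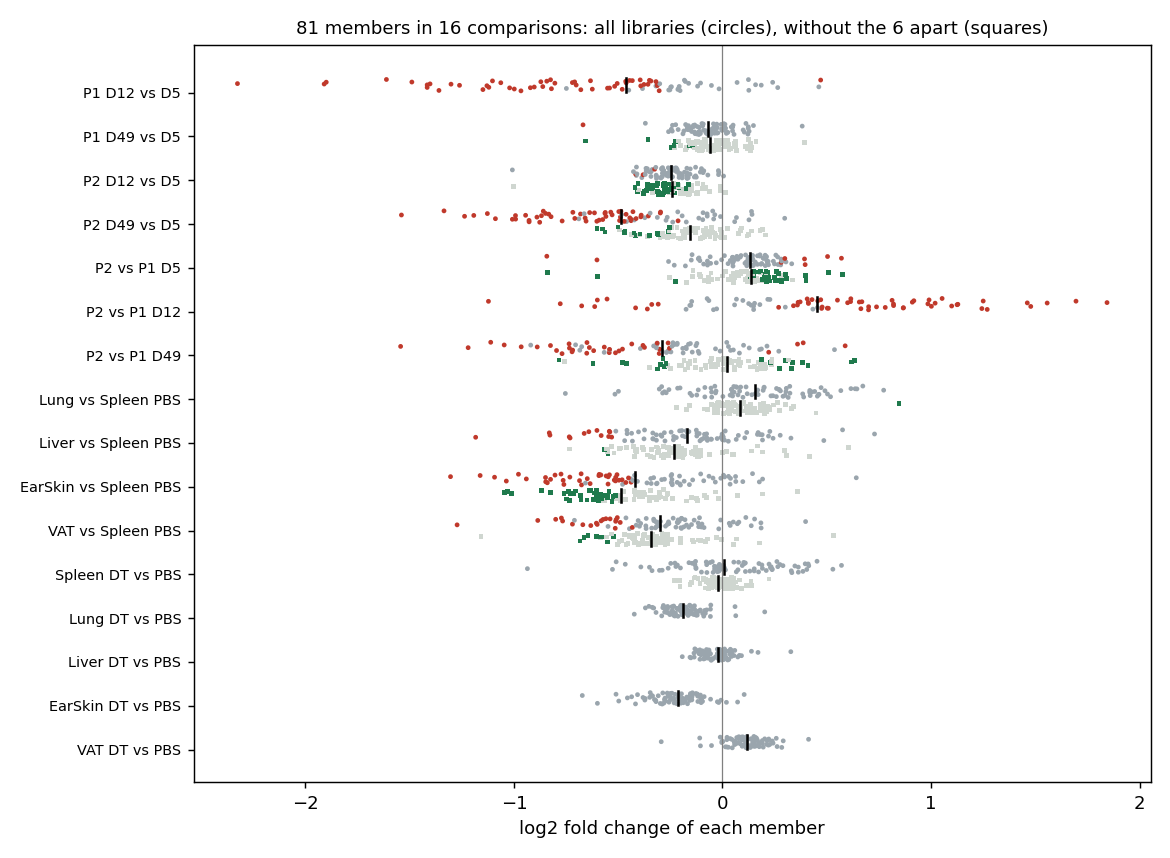
log2 fold change of every member in 16 comparisons, with circles for all libraries (red where the adjusted p is under 0.05), squares for the fits without the 6 libraries that stand apart (green where the adjusted p is under 0.05) and a bar at the median member. Ear skin lies below spleen in both fits, with medians of -0.42 and -0.49, and no member is coloured in the 5 comparisons of DT-labelled with PBS-labelled libraries.

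Between the precursor types, single members differed at the same age: Rps15a was higher and the paralogs Rps27l and Rpl7l1 were lower in P2 than in P1 cells. At day 5, where no compared library stands apart, 6 members were higher and 2 lower in P2 cells (edgeR quasi-likelihood test, adjusted p under 0.05 over all genes), against 6.79% of the 14696 tested genes called higher and 8.4% called lower. These are shares of 7.41% and 2.47% of the members, near the background for the higher calls and below it for the lower calls. The median member changed by 0.13 on the log2 scale, and the median gene by -0.00.

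Rps15a, of the small subunit, had 679.5, 694.2 and 790.3 CPM in day 5 P1 cells and 1011, 1061 and 1142 CPM in P2 cells. All P2 libraries lay above all P1 libraries, and the log2 fold change was 0.57 ± 0.084 (SE, n = 3 and 3; adjusted p = 5.8e-05, edgeR).
Rps27, a small subunit protein with a zinc finger, had 575.5, 543.5 and 652.3 CPM in P1 and 823.1, 810.9 and 877.9 CPM in P2 cells. The groups did not overlap, with a log2 fold change of 0.50 ± 0.118 (adjusted p = 0.00475, edgeR).
Its paralog Rps27l, a target of p53, had 140.6, 134.1 and 128.3 CPM in P1 and 69.6, 76.0 and 79.0 CPM in P2 cells. Every P2 library was thus well below every P1 library, by -0.84 ± 0.116 (adjusted p = 2.9e-05, edgeR).
Rpl7l1, which resembles Rpl7, had 163.4, 172.2 and 191.8 CPM in P1 and 100.5, 115.8 and 131.3 CPM in P2 cells (-0.60 ± 0.148, adjusted p = 0.0071, edgeR), again without overlap. Rps14 (0.30) and Rpl32 (0.28) were among the other higher calls. Rps15a, Rps27 and Rps27l kept their call in all 14 alternatives at day 5, Rpl7l1 lost it without the first P2 library, and Rps14 and Rpl32 lost it in 5 of 6 fits that left out a compared library. Markers of double positive and CD8 thymocytes summed to 37.9 to 47.1 CPM in P2 and 56.4 to 62.8 CPM in P1 cells at day 5, with 0 of 6 higher and Ptcra at 0. Endothelial markers summed to 351.9 to 378.8 against 182.5 to 212.6 CPM, with 4 of 5 higher. Nearly all of that sum was Pecam1, with a mean of 360.1 CPM in P2 and 191.8 CPM in P1 cells. The means of Cdh5, Kdr, Tek and Cldn5 were 0.14 to 1.3 CPM in P2 and 0.11 to 0.85 CPM in P1 cells. Pecam1 was also high elsewhere, with group means of 72.9 to 385.1 CPM. B cell markers summed to 9.58 to 17.3 against 4.96 to 6.65 CPM, with 5 of 6 higher and Ms4a1 at 0. The part of these markers was not tested.

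Without the libraries that stand apart, the spread estimated from the thymic libraries was smaller and 29 members were higher and 3 lower at day 5, against 10.9% and 13.5% of genes. The median fold change was nearly the same, at 0.14. At day 49 the call turned on those libraries: with all of them 4 members were higher and 31 lower in P2 cells, against 16.6% and 12.9% of genes, with a median of -0.29 beside 0.10 for all genes. With the first P2 library alone, assumed to vary like the other groups, 10 were higher and 9 lower, against 7.14% and 10.2%, with a median of 0.02. In these fits without the 6 libraries, which share their spread estimate but no library, the 10 higher calls of day 49 were all among the 29 of day 5 (34.5% of those), with Rpl19, Rpl35a, Rps3, Rps14, Rps15, Rps15a, Rps24 and Rps27 among them. The 3 lower calls of day 5, Rpl14, Rpl7l1 and Rps27l, were all among the 9 of day 49.

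Some members had the same direction at all 3 ages with all libraries, and at day 5 and day 49 also without the libraries that stand apart. The latter fit leaves 1 P2 library at day 49, and none was possible at day 12. Rps15a was higher in P2 cells by 0.66 ± 0.084 at day 12 (adjusted p = 4.7e-06, edgeR) and by 0.59 ± 0.084 at day 49 (adjusted p = 3.1e-05), with 682.7, 683.4 and 645.9 CPM against 1018, 1023 and 1129 CPM, and 767.6, 806.7 and 783.9 CPM against 1215, 1171 and 1160 CPM. Day 49 P2 libraries 2 and 3 were not low for this gene. Rps27l was lower by -0.60 at day 12 and by -0.74 at day 49 (adjusted p = 4.3e-04 and 1.4e-04), and Rpl7l1 by -0.78 and -0.64 (adjusted p = 3.6e-04 and 0.0038). Taken as a percent of the counts of Rps27 and Rps27l together, Rps27l made up 16.4% to 19.8%, 18.8% to 21.1% and 11.7% to 12.9% in P1 cells at the 3 ages, and 7.80% to 8.57%, 7.96% to 8.82% and 4.91% to 7.84% in P2 cells. The ranges of the types did not overlap at any age.

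**Figure D4:**
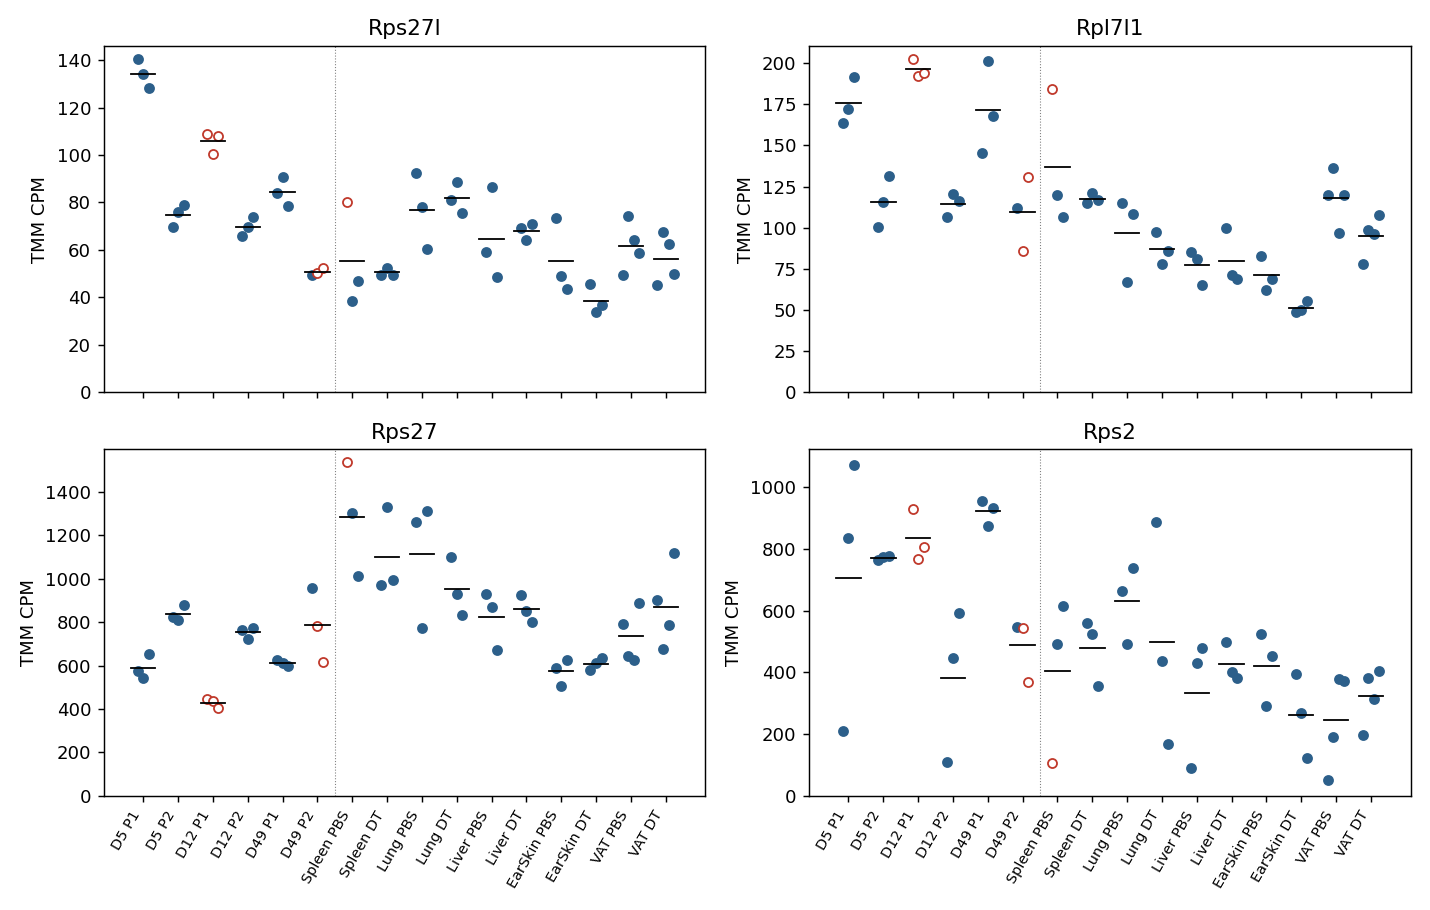
TMM-scaled CPM of Rps27l, Rpl7l1, Rps27 and Rps2 in each library, by group, with 1 point per library. Rps27l and Rpl7l1 are lower and Rps27 is higher in P2 than in P1 cells at day 5, while Rps2 differs several-fold between libraries of a single group.

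At day 12, 49 members were higher and 10 lower in P2 cells, against 17.6% and 23.8% of genes, with a median of 0.46 beside -0.08 for all genes. Every P1 library of that age stands apart, so no fit without them was possible. With the share of low genes as a covariate 8 members were called. The interaction of precursor type with age, day 49 against day 5, called no member (edgeR, 0.157% and 0.218% of genes called higher and lower). Its median was -0.40, 36 members had an unadjusted p under 0.05 and DESeq2 called 3, and without the first day 49 P2 library, which leaves those that stand apart, 51 members were called. The share of all genes called was not recorded for these alternatives, so the counts have no background beside them.

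Between ages, Rps27l was lower in the older P1 cells, and the number of members called in P2 cells turned on which libraries were fitted. In P1 cells, day 49 against day 5 gave 1 lower and no higher call among the members, against 6.5% and 4.06% of genes, and a median of -0.07. The call was Rps27l, with 84.1, 90.8 and 78.7 CPM at day 49 against 140.6, 134.1 and 128.3 CPM at day 5. These ranges are far apart, the log2 fold change was -0.67 ± 0.115 (adjusted p = 4.2e-04, edgeR), and the call held in all 14 alternatives. Without the 6 libraries 7 members were lower, against 10.9% of genes: Rps27l (-0.66), Rpsa (-0.36), Rpl28 (-0.25), Rpl4, Rpl41, Rps26 and Rplp0 (-0.14). Rpsa, also known as a laminin receptor, had 1365, 1415 and 1263 CPM at day 49 and 1716, 1690 and 1818 CPM at day 5, without overlap. Double positive and CD8 thymocyte markers summed to 100.1 to 107.7 CPM at day 49 and 56.4 to 62.8 CPM at day 5 (3 of 6 higher, Rag1 and Ptcra at 0). Macrophage markers summed to 11.8 to 29.1 against 6.70 to 8.69 CPM (7 of 8 higher), and Treg markers were higher in 6 of 6. Their part was not tested.

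In P2 cells, day 12 against day 5, 80 of the 81 members had a negative log2 fold change, with a median of -0.25 beside 0.00 for all genes. With all libraries 3 were called lower (Rpl32, Rpl36a and Rps25) and none higher, against 3.35% and 1.81% of genes. Without the 6 libraries, none of which is in either group, the median was -0.24. In that fit 42 were lower and none higher, against 6.89% and 4.71%. The median hardly moved, and the added calls go with a smaller estimated spread. The libraries left out were chosen by the ratio of 2 members, so that spread depends on the choice. Rplp0, the base of the stalk, had 2974, 3012 and 3241 CPM at day 12 and 3969, 3967 and 3820 CPM at day 5. The groups were well separated, with a log2 fold change of -0.34 ± 0.047 and an adjusted p of 7.9e-05 (edgeR, without the 6 libraries). With them the change was -0.35 ± 0.122 (adjusted p = 0.115, edgeR). Rplp2 (-0.42), Rpl36a (-0.41), Rpl28 (-0.41) and Rpsa (-0.41) had the largest changes among the members called, while Rps15a (-0.01) and Rps27l (-0.09) were not called. Macrophage markers summed to 5.22 to 7.88 CPM at day 12 and 10.26 to 12.13 CPM at day 5 (2 of 8 higher, C1qa and C1qb at 0), Treg markers were higher in 6 of 6, and their part was not tested.

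At day 49 against day 5 in P2 cells, 52 members were lower and none higher, against 11.1% and 14.7% of genes, with a median of -0.49 beside 0.08 for all genes. The large subunit had 30 of these calls and the small subunit 22. Day 49 libraries 2 and 3 hold most of the difference: without them 15 members were lower, against 8.34% of genes, with a median of -0.16. With the share of low genes as a covariate 3 members were called. In the first library, Rplp0 had 2655 CPM and Rpsa 1114 CPM, against 3820 to 3969 CPM and 1500 to 1612 CPM at day 5. These members were lower by -0.56 and -0.50 in the fit without libraries 2 and 3. That fit leaves 1 day 49 library, so its calls rest on the spread of other groups.
In P1 cells, day 12 against day 5, 52 members were lower and 1, Rps6, higher, against 8.16% and 10.1% of genes, with a median of -0.46. Rps12 (-2.33), Rplp2 (-1.91) and Rpsa (-1.61) had the lowest values and Rps6 the highest (0.47 ± 0.116, adjusted p = 0.0107, edgeR). No member was called with the share of low genes as a covariate.

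Across tissues, ear skin Treg cells had lower levels of the members than splenic Treg cells in both arms. In the PBS-labelled libraries 36 members were lower in ear skin and none higher, against 12.5% and 11.1% of the 17731 tested genes, with 18 calls in each subunit. The median member changed by -0.42 and the median gene by 0.14. Without the first spleen library 35 were lower and none higher, against 8.3% and 6.58% of genes, with a median of -0.49 and 78 members negative. In the DT-labelled libraries, where no library stands apart, 62 were lower and none higher, against 11.6% and 10.5% of genes, with a median of -0.71 and all 81 negative. All 35 calls of the PBS-labelled libraries without the first spleen library were among the 62 (56.5% of those). The arms share no library but share a spread estimate.

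Rps19, a small subunit protein known from Diamond-Blackfan anaemia, had 527.0, 391.7 and 454.7 CPM in PBS-labelled ear skin and 1524, 1064 and 803.6 CPM in spleen. Every skin library lay below every spleen library, with a log2 fold change of -1.30 ± 0.208 (adjusted p = 1.2e-05, edgeR). It was -1.05 ± 0.204 without the first spleen library (adjusted p = 3.1e-04) and -1.11 ± 0.207 in the DT-labelled arm (adjusted p = 1.5e-04).
Rps15a had 581.1, 395.9 and 521.9 CPM in skin and 1206, 1059 and 932.3 CPM in spleen. The groups were apart in this arm (-1.09 ± 0.173, adjusted p = 1.1e-05, edgeR) and in the DT-labelled one, with 428.9, 414.0 and 437.4 CPM against 912.7, 1095 and 922.0 CPM (-1.19).
Rps27 had 586.6, 507.8 and 625.8 CPM in skin against 1538, 1301 and 1011 CPM in spleen (-1.16 ± 0.198, adjusted p = 3.3e-05, edgeR), and -0.85 in the DT-labelled arm. Its skin libraries were all below the lowest spleen library. Rps14, Rps15a, Rps19 and Rps27 kept their call in all 15 alternatives for this comparison.

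Rpl7l1 was lower by -0.94 with all PBS-labelled libraries, by -0.68 without the first spleen library and by -1.19 in the DT-labelled arm. Rpl13a, a large subunit protein that can be released from the ribosome in interferon-treated cells, had 29.5, 31.9 and 41.8 CPM in DT-labelled skin and 66.1, 96.1 and 88.7 CPM in spleen. The libraries did not overlap (-1.28 ± 0.207, adjusted p = 1.9e-05, edgeR), whereas in the PBS-labelled arm the value was -0.48 (adjusted p = 0.0804). Rpl35 shows how far a single spleen library can carry a member: its log2 fold change was -1.04 (adjusted p = 0.0158) with that library and -0.08 (adjusted p = 0.853) without it.

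Ear skin also differed in other measures. The share of low genes was 1.15% to 2.28% in ear skin and 0.449% to 0.900% in spleen, and with it as a covariate 4 members were called. The 5 fibroblast markers all had a higher mean in PBS-labelled ear skin, with sums of 16.9 to 23.7 CPM against 1.29 to 8.54 CPM in spleen, and the 5 keratinocyte markers summed to 9.94 to 14.97 CPM against 1.79 to 9.17 CPM, with 4 of 5 higher. In the DT-labelled arm the fibroblast markers summed to 19.8 to 28.3 CPM in ear skin and 0.80 to 3.59 CPM in spleen, again with 5 of 5 higher. Of the keratinocyte markers 3 of 5 were higher there. No fibroblast or keratinocyte marker was at 0 in the PBS-labelled skin group. Lists of other cells rose there too, with 5 of 5 hepatocyte markers higher (3.33 to 8.23 against 0 to 1.43 CPM) and 4 of 5 adipocyte markers. So did 5 of 6 B cell and 4 of 5 endothelial markers, although the sums of these 2 lists were lower in skin. The part of all these markers in the member levels was not tested. With the skin and spleen libraries fitted alone, 11 members were called, and without the second ear skin library 16 (shares of all genes not recorded).

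**Figure D5:**
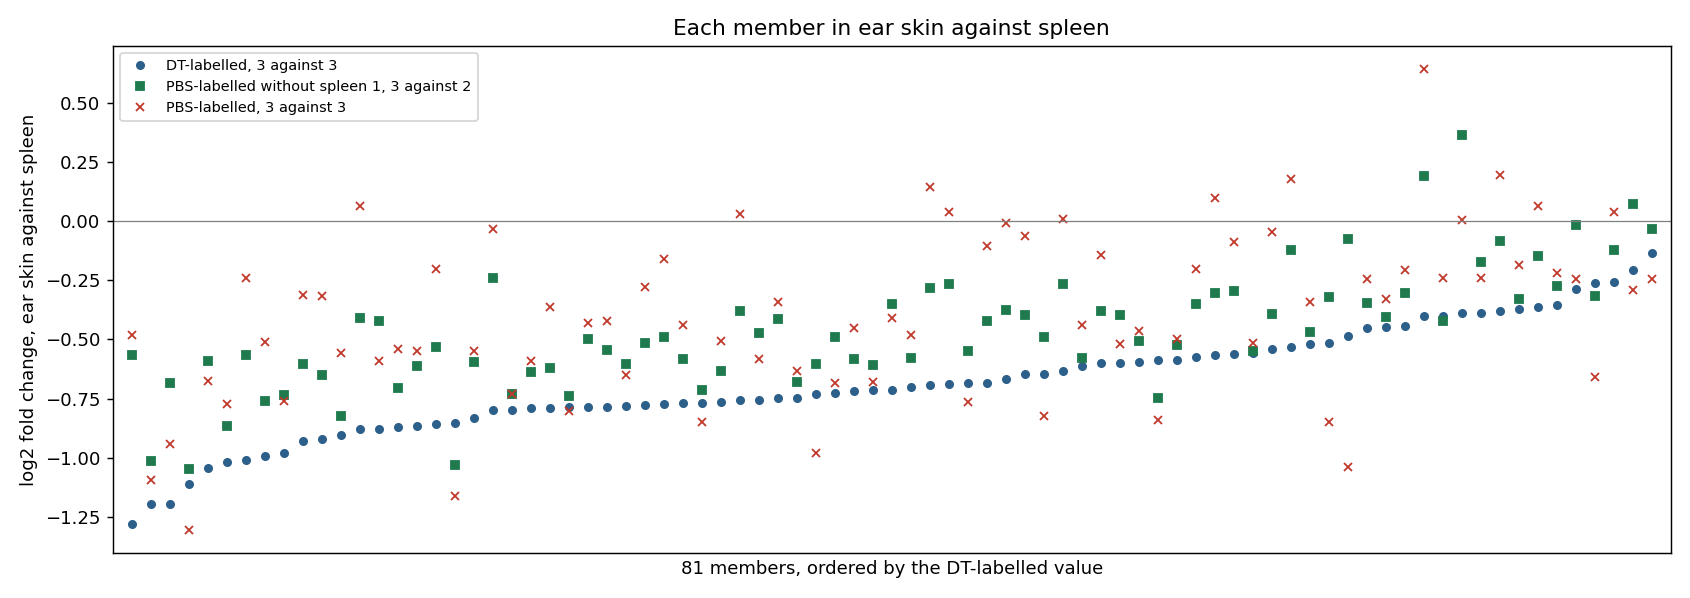
log2 fold change of each of the 81 members, ear skin against spleen, in the DT-labelled libraries (blue circles), the PBS-labelled libraries without the first spleen library (green squares) and all PBS-labelled libraries (red crosses). All 81 members lie below 0 in the DT-labelled libraries and 78 in the PBS-labelled libraries without the first spleen library.

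VAT Treg cells had 20 members lower and none higher than spleen in the PBS-labelled libraries, against 6.27% and 8.67% of genes, with a median of -0.30 beside -0.06. Without the first spleen library 7 were lower, against 3.81%, and in the DT-labelled arm 3, against 3.15%, with Rpl35a and Rps15a among them. All 3 were among the 7 (42.9% of those). DT-labelled VAT library 7 had fibroblast markers at 531.2 CPM and macrophage markers at 118.7 CPM, against 1.71 to 6.51 and 1.93 to 18.3 CPM in the others of its group. Without it no member was called in the DT-labelled arm (edgeR), against 4.6% and 2.26% of genes higher and lower, with 6 members under an unadjusted p of 0.05 and a median of -0.23 (DESeq2 was not run on that set). With library totals in place of TMM the count was 34, while the median of all genes moved from -0.06 to -0.16.
Rpl35a, of the large subunit, had 268.0, 274.7, 249.7 and 314.7 CPM in PBS-labelled VAT and 429.4, 503.4 and 388.1 CPM in spleen. The DT-labelled libraries had 264.1, 273.6, 279.7 and 340.8 CPM and 392.1, 456.0 and 367.1 CPM. VAT lay below spleen without overlap in both arms, by -0.67 ± 0.147 (adjusted p = 0.00126, edgeR) and -0.48 ± 0.148 (adjusted p = 0.0325). Without DT-labelled VAT library 7 the latter was -0.47 (adjusted p = 0.079), and that of Rps15a -0.44 (adjusted p = 0.14). In the other 16 alternatives for VAT both kept their call. The adipocyte markers summed to 1.396 to 4.41 CPM in VAT and 0.72 to 1.39 CPM in spleen, with 3 of 5 higher, and their part was not tested.

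Liver Treg cells had 13 members lower and none higher, against 7.85% and 9.15% of genes, with a median of -0.17. Rps19 (-0.83), Rps15a (-0.66) and Rpl35a (-0.53) were among them. Without the first spleen library 2 were lower (Rpl35a and Rps15a), against 3.86% of genes, and in the DT-labelled arm 1 (Rpl35a, -0.48), against 5.08%. With library totals in place of TMM 29 were called, with the median of all genes at -0.18 in place of -0.02. The hepatocyte markers summed to 6.36 to 20.1 CPM in liver and 0 to 1.43 CPM in spleen, with 4 of 5 higher, and their part was not tested.
Lung Treg cells had no member called against spleen, beside 8.14% of genes higher and 7.79% lower, with 16 members under an unadjusted p of 0.05 and 11 called by DESeq2. Without the first spleen library 1 was higher, Rps27l (0.85 ± 0.245, adjusted p = 0.021, edgeR), against 5.74% of genes higher and 4.49% lower. It was also the single call in the DT-labelled arm (0.69 ± 0.242, adjusted p = 0.0495), against 8.48% of genes, with 81.2, 88.6 and 75.6 CPM in lung and 49.5, 52.5 and 49.6 CPM in spleen. Without PBS-labelled spleen library 3, 13 members were called in lung, and without library 2, 7 (shares of all genes not recorded). The macrophage markers summed to 5.89 to 64.1 CPM in lung and 7.56 to 14.2 CPM in spleen, and their part was not tested.

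No member was called between DT-labelled and PBS-labelled libraries of a tissue (edgeR, 0 of 81 in each of 5 tissues), although 1 was called in ear skin without a filter on low counts. Called higher and lower were 0% and 0% of genes in spleen, lung and liver, 0.277% and 0.134% in ear skin and 0.0497% and 0.0746% in VAT. The medians were 0.01 in spleen, -0.19 in lung, -0.02 in liver, -0.21 in ear skin and 0.12 in VAT. At an unadjusted p under 0.05 there were 0, 1, 0, 15 and 1 members, and DESeq2 called none in any tissue. In ear skin 78 of 81 members were negative, the lowest adjusted p being that of Rpl28 (-0.50 ± 0.173, adjusted p = 0.294, edgeR), with 274.6, 177.6 and 186.6 CPM in PBS-labelled and 153.0, 132.5 and 162.1 CPM in DT-labelled libraries. Those groups do not overlap, and the first PBS-labelled library is far above the rest. In VAT, the tissue the series is about, Rps19 had 546.7, 627.3, 532.2 and 741.4 CPM in PBS-labelled and 581.7, 584.6, 569.1 and 757.1 CPM in DT-labelled libraries. These overlap throughout, with a log2 fold change of 0.04 ± 0.135 (adjusted p = 0.972, edgeR).
The tests of whether ear skin or VAT differed from spleen by another amount in the DT-labelled arm called no member either, against 0.0282% and 0.0169% of genes higher and lower for ear skin and 0% and 0.0169% for VAT. Their medians were -0.27 and 0.03, and 14 and 2 members had an unadjusted p under 0.05. The larger count in DT-labelled skin is therefore not shown to be a different response of the members.

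Rps2, of the small subunit, also varied several-fold between libraries of groups in which no library stands apart. It had 211.5, 835.8 and 1070 CPM in day 5 P1 cells, 109.8, 447.4 and 592.4 CPM in day 12 P2 cells, 91.7, 428.8 and 479.4 CPM in PBS-labelled liver and 50.03, 191.0, 377.0 and 370.4 CPM in PBS-labelled VAT. In each of these groups the first library was the lowest, whereas day 5 P2 cells had 762.8, 772.8 and 776.6 CPM. Its largest change, P2 against P1 at day 12, was -1.12 ± 0.435 (adjusted p = 0.0443, edgeR).
The paralog pair Rpl22 and Rpl22l1 differed in the libraries that stand apart. Rpl22, known for its need in αβ T cell development, had 153.1, 149.7 and 128.7 CPM in day 12 P1 cells, below the 258.8 to 324.4 CPM of day 5, whereas its paralog Rpl22l1 had 98.5, 100.3 and 102.9 CPM against 94.3 to 107.0 CPM. The first pair of ranges is separate and the second overlaps.

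Over the 16 group means, Rpl27a (r = 0.986) and Rps27a (r = 0.985), which is made as a fusion with ubiquitin, were closest to the median member. The least alike were Rpl35 (0.162), Rps2 (0.211), Rpl7l1 (0.213), Rpl3 (0.243) and Rpl22l1 (0.281). Among genes outside the members, the closest were Rps16-ps2 (0.906), a pseudogene of Rps16, Macroh2a1 (0.89), the elongation factor subunit gene Eef1b2 (0.885), 5530601H04Rik (0.868) and Gm3511 (0.861). These correlations describe 16 points that share library depth and the thymic and peripheral scalings.

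Other genes of ribosome production were followed in lists chosen with earlier results of these data known. Fau, whose product includes a small subunit protein, had 476.3, 475.0 and 527.4 CPM in day 5 P1 and 666.4, 665.8 and 696.1 CPM in P2 cells. It was higher in P2 cells without overlap at day 5 (0.46, adjusted p = 0.00102, edgeR), day 12 (0.50, adjusted p = 1.7e-04) and day 49 (0.52, adjusted p = 2.4e-04).
Of 34 ribosome biogenesis genes, none was higher and 29, 32 and 31 were lower in P2 than in P1 cells at day 5, 12 and 49, with medians of -0.88, -0.97 and -1.03. Of all tested genes 8.4%, 23.8% and 12.9% were lower. Without the libraries that stand apart the lower calls were 32 at day 5 and 28 at day 49. Among them Ncl, the nucleolar protein nucleolin, had a mean of 637.8 CPM in P2 and 1260 CPM in P1 cells at day 5 (-0.98 ± 0.127, adjusted p = 1.4e-05, edgeR), and Nop56, a box C/D snoRNP protein, 207.0 and 379.3 CPM (-0.87 ± 0.099, adjusted p = 2.6e-06).
Of the 78 mitochondrial ribosomal protein genes none was higher and 28 were lower in P2 cells at day 5, with a median of -0.45, and 27 at day 49, with -0.32. Without the libraries that stand apart, 43 and 25 were lower, with medians of -0.44 and -0.48, beside 0.14 and 0.02 for the cytosolic members. These shares compare with 8.4% of all genes lower at day 5 and 12.9% at day 49, or 13.5% and 10.2% without those libraries. Of the 20 regulators, 2 were higher and 2 lower at day 5, near the 6.79% and 8.4% of all genes, among them Myc (-0.58 ± 0.162, adjusted p = 0.0173, edgeR), with 303.6 CPM in P1 and 203.0 CPM in P2 cells. Of the 21 translation factors and other genes with TOP messages, 9 were lower and none higher at day 5, with a median of -0.04, and 9 lower and 5 higher without the libraries that stand apart. In PBS-labelled ear skin against spleen, 5 biogenesis genes were lower and 1 higher, 22 of 77 tested mitochondrial ribosomal protein genes were lower and 2 higher, and 7 of the TOP genes were lower and 1 higher, beside 12.5% and 11.1% of all genes. Without the first spleen library, 2 biogenesis, 7 mitochondrial and 6 TOP genes were lower and 0, 2 and 1 higher, beside 8.3% and 6.58%. In the DT-labelled arm 13, 28 and 10 were lower and 0, 1 and 1 higher, beside 11.6% and 10.5%.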

How the data were processed

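RNA-seq counts per gene in 50 libraries (2521078 to 6981037 per library) were used as the authors deposited them: per the submitters' processing notes, reads were aligned with STAR 2.7.3a to mm10 and counted with featureCounts. For the annotation, strand setting and reads with several matches: not given in the sources used here. The extract protocol of the labels describes cells of another study and was not used.

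Groups came from the sample labels. Genes were tested with the quasi-likelihood test of edgeR 4.0.16 in R 4.3.3, two-sided, with TMM scaling, filterByExpr (minimum count 10, minimum total 15) and Benjamini-Hochberg adjustment over all genes at 0.05. One fit held the 18 thymic libraries, another the 32 peripheral libraries, and DT-labelled against PBS-labelled libraries were fitted within a tissue. Standard errors are the fold change divided by the square root of F. Alternatives were RLE factors, library totals, no filter, DESeq2 1.42.0, each library left out and a replicate block. Fits of the compared libraries alone, without the 6 libraries that stand apart, with the log2 share of low genes as covariate, and of tissues in the DT-labelled arm, for VAT also without its library 7, were chosen after seeing the data. The scripts were tested on simulated data.

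Members, lists and named genes (members called without overlap, up to 10 each way; paralogs; stalk genes, Rpsa and Rps6; level extremes; up to 3 genes per list) were chosen with earlier results of these data known. Rps14, Rps2 and the 6 libraries, with the members singled out beside them, were chosen after their values were seen. Other lists covered 9 cell types and 319 pseudogenes, of which 33 passed the filter in the thymus. Of these, 5 were higher and none lower in P2 than in P1 cells at day 12, beside 17.6% and 23.8% of all genes. Gene positions are from GENCODE M21 and promoters from RefSeq. In no comparison did the deviations of every same-numbered pair correlate above 0.1, so numbers were not taken to pair libraries. For ear skin and spleen, same-numbered pairs had 0.062 to 0.113 and differently numbered pairs -0.163 to 0.061. For liver and for VAT against spleen, 2 of 3 same-numbered pairs were above 0.1, with the lowest at -0.069 and -0.116. Pairing is therefore not excluded, and fits with the number as a block are given below. No pair of libraries of a group agreed within sampling noise. Values of some single genes are not reported here.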

Additional observations from a re-analysis of the deposited data

Results flagged for a closer look

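In groups of 4 libraries, a library was picked out when its gap to the nearest of the others divided by the range of the group exceeded Dixon's critical value. Of 56 such tests, 7 picked out a library, in every case the last of the DT-labelled VAT group, as the highest, and chance gives about 1 in 20. Its members took 5.81% of the counts, against 4.48% to 4.55% in the other libraries of the group (gap over range 0.945). The genes were Rpl13 (0.917), with 663.0 against 497.9 to 511.6 CPM, Rpl36a (0.887), Rplp1 (0.855), Rps19 (0.918), Rps6 (0.92) and Rps9 (0.847). The genes share the library, so these are not separate observations.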

How the results depend on the processing

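Counts of members called (of 81) are given for comparisons where they moved by over 1.5 times, and the cause was not tested. Shares of all genes called are given above for the DT-labelled arm and, except for the interaction, for the fits without the 6 libraries. They were not recorded for the other alternatives, so those counts have no background beside them. Library totals in place of TMM gave 3 in lung, 29 in liver, 34 in VAT and 1 in the interaction of precursor type with age. RLE factors gave 2 in lung. Without a filter there were 2 in P1 cells at day 49 against day 5, 56 in P2 against P1 cells at day 49, 47 in that interaction, 7 in lung and 1 in DT-labelled against PBS-labelled ear skin. DESeq2 gave 3 in P1 cells at day 49, 12 in P2 cells at day 12 against day 5, 3 in the interaction and 11 in lung. With low genes as covariate there were 0 in P1 cells at day 12 and 3 at day 49, 13 in P2 cells at day 12 and 3 at day 49, 8 and 7 in P2 against P1 cells at days 12 and 49, 1 in lung, 4 in ear skin and 32 in VAT. In that fit the log2 fold changes of Rps4x (0.053) and Rplp0 (0.086) in P1 cells at day 12, Rpl7 (0.022) in P2 cells at day 49, Rpl10 (-0.19) and Rpsa (-0.15) in P2 against P1 cells at day 12, and Rpl29 (0.033), Rps4x (0.049) and Rplp2 (0.14) at day 49 changed sign. Without the 6 libraries that stand apart there were 7 in P1 cells at day 49, 42 and 15 in P2 cells at days 12 and 49, 32 and 19 in P2 against P1 cells at days 5 and 49, 1 in the interaction, 1 in lung, 2 in liver and 7 in VAT, and Rpl3 (-0.28), Rplp2 (0.044) and Rps6 (-0.004) in P2 against P1 cells at day 49 changed sign. DT-labelled libraries gave 1 in lung, 1 in liver, 62 in ear skin and 3 in VAT, or 0 in VAT without DT-labelled VAT library 7, and Rplp1 (-0.69) and Rpsa (-0.69) in ear skin and, without that library, Rpl3 (0.017) in VAT changed sign. The compared libraries fitted alone, and then with the replicate number as a block, gave 3 and 2 in P1 cells at day 49, 47 and 45 in P2 cells at day 12, 4 and 7 at day 49, 41 and 46 in P2 against P1 cells at day 5, 3 and 6 at day 49, 1 and 1 in liver, 11 and 11 in ear skin and 6 and 6 in VAT. Correlations of same-numbered libraries ran from -0.244 to 0.269. Leaving out each library gave 35 to 47 in P1 cells at day 12, 1 to 1 at day 49, 0 to 1 and 35 to 66 in P2 cells at days 12 and 49, 4 to 8, 46 to 54 and 15 to 60 in P2 against P1 cells at days 5, 12 and 49, 0 to 51 in the interaction, 0 to 13 in lung, 2 to 19 in liver, 16 to 43 in ear skin and 7 to 31 in VAT. The liver count was 2 without PBS-labelled spleen library 1 and 3 without liver library 3, and the VAT count 7, 11 and 31 without spleen library 1, spleen library 2 and VAT library 4. Every member had counts in every library, so depth left no member undetected; the number of libraries per group and reads shared with pseudogenes limit what can be told.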
